A study of Mus musculus with 12 samples.

Results

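The levels of 9 genes that encode hormone receptors, luminal transcription factors and their targets were followed across 12 mammary tumors of MADM-mutant mice. The members were the rows of the deposited expression values whose symbol was Esr1, Esr2, Pgr, Foxa1, Gata3, Greb1, Tbx3, Xbp1 or Ly6a. All 9 were found, each once, among 47593 genes. The tumors came from 9 mice, of which 7 gave 1 tumor, 1 gave 2 tumors (tumors 3 and 4) and 1 gave 3 tumors (tumors 10, 11 and 12).

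All tumors belonged to 1 group, from untreated mice on a mixed background that the labels give as carrying MADM RG;GR alleles. In these MADM-Brca1-p53; MMTV-Cre mice, the Cre transgene is driven in mammary epithelium and recombines a pair of marker cassettes on chromosome 11. Sparse GFP+ cells without Brca1 and p53 arise beside RFP+ wild-type sibling cells, in an animal that is otherwise heterozygous. RNA came from unsorted pieces of tumor, so RNA of heterozygous host cells can be part of each value. Ages of the mice were not given in the sources used here, and no normal gland was among the samples analysed here. Poly(A) RNA was measured as TPM, an abundance of transcripts per unit of their length that is scaled to the same total in each tumor.

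The mammary duct has an inner luminal and an outer basal, or myoepithelial, layer. Part of the luminal layer, the mature or hormone-sensing cells, carries the estrogen receptor (Esr1) and the progesterone receptor (Pgr), and signals to neighboring cells through secreted factors such as amphiregulin. The forkhead factor FOXA1 opens chromatin for the estrogen receptor, and GATA3 is needed for luminal cells to form and to be kept. The other luminal cells, the progenitors, carry KIT and ELF5 and few hormone receptors. Basal-like breast tumors are known for low levels of these receptors.

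Values keep no read number, so the depth of a tumor is unknown and counting error could not be estimated. A level of 1 TPM or more was reached by 14554 to 16417 genes in a tumor. The genes targeted in the model, Brca1 and Trp53, were listed at 6.93 to 24.7 TPM and at 30.2 to 74.2 TPM. These values per gene do not separate mutant from intact alleles or tumor cells from host cells, and so they do not check the genotype. In a whole tumor, fewer cells of a type and less RNA per cell cannot be told apart. The labels name no sequencing batch.

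The labelled tissue was checked against its defining markers, and 2 tumors stood apart. The median of 6 epithelial junction genes, Epcam and Cdh1 among them, was 167 to 357 TPM in 10 tumors, against 0.122 TPM in tumor 2 and 2.05 TPM in tumor 8. For 5 B lymphocyte genes, Cd79a, Cd79b and Ighm among them, the median was 609 TPM in tumor 2 and 0 to 40.3 TPM in the other 11 tumors. Ms4a1 of the same list went the other way, with 2.18 TPM in tumor 2 and its highest value, 11.7 TPM, in tumor 9. Tumor 8 had the highest Dcn (decorin, a matrix proteoglycan of fibroblasts) with 1732 TPM, where the next tumor had 285 TPM. Of the 6 fibroblast genes, Pdgfra was also highest in tumor 8, whereas Col1a1, Col1a2, Col3a1 and Lum were highest in tumor 4. The median of the list was 442 TPM in tumor 4 and 333 TPM in tumor 8. Both tumors thus carried the tissue label with a junction gene median far below that of the other 10 tumors. The tests, and the means of members that moved by over 1.5 times, are given with and without these tumors. Means of the other genes include both.

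Of the 9 members, 2 reached 1 TPM in all 12 tumors (Xbp1 and Ly6a), beside 25.2% of all genes. With Gata3, 3 of 9 reached it in at least 10 tumors, beside 29.7% of all genes. Below 1 TPM in all 12 tumors were 2 of 9 (Esr2 and Pgr), beside 56.6% of all genes. The counts are small, and the members were named with these levels known. The levels fell into a high group of Ly6a and Xbp1, a middle position held by Gata3, and a low group of the other 6 members.

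**Figure D1:**
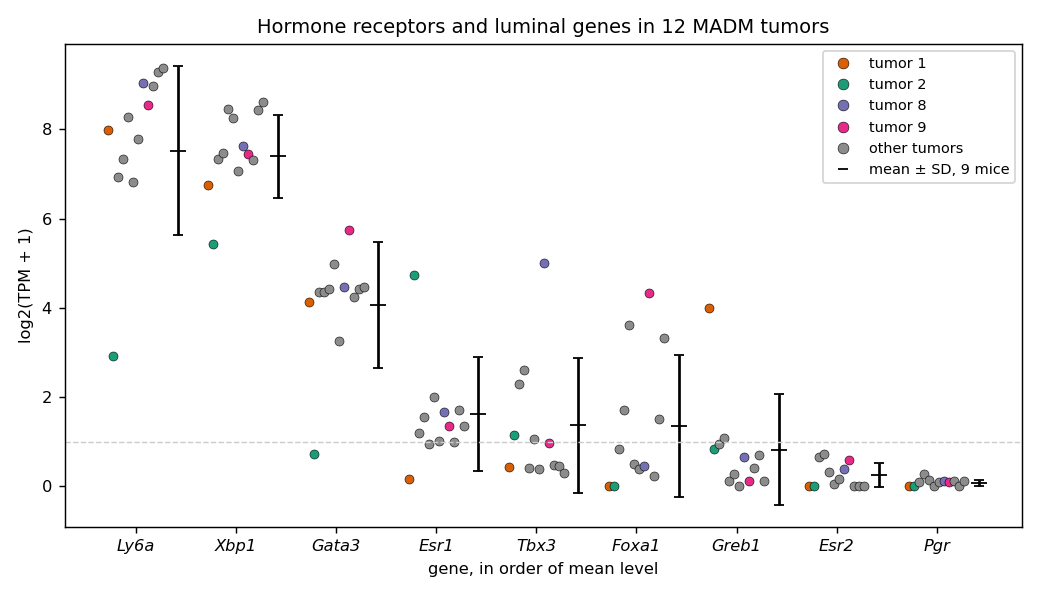
Level of each member in each of 12 tumors as log2(TPM + 1), with genes on the x axis in order of their mean. Points are tumors, bars the mean ± SD over 9 mice, and the dashed line marks 1 TPM; Esr1 in tumor 2 (25.8 TPM), Greb1 in tumor 1 (15.0 TPM), Tbx3 in tumor 8 (31.1 TPM) and Gata3 in tumor 2 (0.652 TPM) lie away from the other tumors.

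The receptors come first. Esr1 (ENSMUSG00000019768, chromosome 10 from 4611593 to 5005614, plus strand) encodes estrogen receptor alpha, the nuclear receptor through which estradiol acts in the mammary gland. Its lowest value was 0.123 TPM in tumor 1, its median 1.56 TPM and its highest 25.8 TPM in tumor 2. Esr1 was thus low but listed above 0 in every tumor, at 1 TPM or more in 9 of 12, and the second highest tumor, tumor 6, had 2.98 TPM. The mean of 4.20 ± 8.13 TPM (SD, n = 9 mice) was 1.40 ± 0.879 TPM (n = 7 mice) without tumors 2 and 8. The highest Esr1 thus stood in the tumor with the lowest median of epithelial junction genes and the highest median of B lymphocyte genes. The part of those cell types in it was not tested.

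Esr2 (ENSMUSG00000021055, chromosome 12 from 76120419 to 76177259, minus strand) encodes estrogen receptor beta, the paralog. It was listed at 0 in 5 tumors, with a median of 0.0730 TPM and a highest value of 0.663 TPM in tumor 4. Both tumors of that mouse, with 0.588 TPM in tumor 3, were above all others, and the 3 tumors of the mouse of tumors 10 to 12 were all at 0. Pgr (ENSMUSG00000031870, chromosome 9 from 8899833 to 8968611, plus strand) encodes the progesterone receptor and is itself a classical estrogen-induced gene. It was at 0 in 4 tumors, with a median of 0.0750 TPM and a highest value of 0.207 TPM, again in tumor 4. No tumor reached 1 TPM of either gene, tumor 2 with its higher Esr1 included, in which Pgr was listed at 0.

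Foxa1 (ENSMUSG00000035451, chromosome 12 from 57540628 to 57546916, minus strand), the pioneer factor of the estrogen receptor, was low in most tumors and higher in a few. It was listed at 0 in tumors 1 and 2, had a median of 0.602 TPM and reached 19.0 TPM in tumor 9. Tumors 5 and 12 followed with 11.2 and 9.04 TPM, and 7 of the 12 tumors were below 1 TPM. The 3 tumors with the most Foxa1 thus came from 3 different mice. The mean was 4.07 ± 6.68 TPM (SD, n = 9 mice), and 2.19 TPM without tumor 9.

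Foxa1 also differed between tumors of 1 mouse. Tumor 10 had 0.167 TPM, tumor 11 had 1.85 TPM and tumor 12 had 9.04 TPM, a ratio of 54.3 between the extremes. The value of tumor 10 is near 0 with no known depth, so the size of this ratio is uncertain. In the other mouse, tumor 4 had 2.29 TPM against 0.784 TPM in tumor 3. The median difference within a mouse was 1.55 on the log2(TPM + 1) scale over 4 pairs of tumors, against 1.30 over the 62 pairs from different mice. For Gata3, by contrast, the same medians were 0.11 and 0.75, for Tbx3 0.16 and 0.77, for Ly6a 0.35 and 1.28, for Esr1 0.36 and 0.64, and for Xbp1 0.64 and 0.93. Greb1 had 0.30 and 0.56, Esr2 0 and 0.33, and Pgr 0.11 and 0.10. By these medians tumors of 1 mouse were nearer to each other than tumors of different mice in 7 members, and not in Foxa1 and Pgr. With 2 mice behind the 4 pairs, this is a description.

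Gata3 (ENSMUSG00000015619, chromosome 2 from 9857078 to 9890034, minus strand), the zinc-finger factor of luminal cells and of helper T cells, was present in nearly all tumors. Its lowest value was 0.652 TPM in tumor 2, its median 19.99 TPM and its highest 52.4 TPM in tumor 9. The other 11 tumors lay between 8.56 and 52.4 TPM, also tumor 8 with 21.2 TPM, where the median of the epithelial junction genes was 2.05 TPM. The mean was 21.1 ± 14.4 TPM (SD, n = 9 mice), and 24.0 ± 14.1 TPM (n = 7) without tumors 2 and 8. Tumors 9 and 8, with the highest and the third highest Gata3, also had the highest medians of the 5 T lymphocyte genes, 14.2 and 6.87 TPM, whereas tumor 6, with the second highest Gata3 (30.4 TPM), had a median of 1.67 TPM.

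Xbp1 (ENSMUSG00000020484, chromosome 11 from 5520659 to 5525893, plus strand) encodes the factor that expands the secretory pathway and is a well-known companion of the estrogen receptor in luminal tumors. It lies on the chromosome that carries the MADM cassettes. Its lowest value was 42.3 TPM in tumor 2, its median 175 TPM and its highest 387 TPM in tumor 12. Every tumor was thus well above 1 TPM, and without tumor 2 the range was 106 to 387 TPM. Tumor 8, with low epithelial junction genes, had 197 TPM. The mean was 197 ± 102 TPM (SD, n = 9 mice), higher than that of 98.3% of all genes.

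Tbx3 (ENSMUSG00000018604, chromosome 5 from 119670669 to 119684724, plus strand), a T-box repressor needed for the mammary bud, was low with 1 exception. Its lowest value was 0.239 TPM in tumor 12, its median 0.680 TPM and its highest 31.1 TPM in tumor 8. Tumors 4 and 3, of 1 mouse, followed with 5.09 and 3.88 TPM, and 7 tumors were below 1 TPM. The mean fell from 4.46 ± 10.1 TPM (SD, n = 9 mice) to 1.13 ± 1.52 TPM (n = 7) without tumors 2 and 8. Tbx3os1, an antisense transcript that shares 697 bases with Tbx3, was also highest in tumor 8, with 9.83 TPM, and did not exceed 0.465 TPM elsewhere. Whether strand was used in the quantification is not given in the sources used here, so the levels of the pair are uncertain where they overlap.

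Greb1 (ENSMUSG00000036523, chromosome 12 from 16670615 to 16800886, minus strand) encodes a cofactor of the estrogen receptor and is among its most strongly induced targets. It was listed at 0 in tumor 7, had a median of 0.451 TPM and reached 15.0 TPM in tumor 1. The second highest, tumor 4, had 1.11 TPM, and the ratio of the highest to it was 13.5. Tumor 1 thus held the highest Greb1 beside the lowest Esr1 (0.123 TPM), no listed Pgr and no listed Foxa1. The mean of 2.01 ± 4.87 TPM (SD, n = 9 mice) was 0.388 TPM without that mouse.

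Because Greb1 and Pgr are both known as estrogen-induced and went apart in tumor 1, the 250 bases before their transcription starts are shown in full, 5′ to 3′ along the gene. They are RefSeq sequences on GRCm38.p6, Greb1 from chr12:16800887-16801136 on the minus strand and Pgr from chr9:8899583-8899832 on the plus strand. Capitals mark a match to AGGTCA, the half-site of the estrogen response element, on either strand.
Greb1: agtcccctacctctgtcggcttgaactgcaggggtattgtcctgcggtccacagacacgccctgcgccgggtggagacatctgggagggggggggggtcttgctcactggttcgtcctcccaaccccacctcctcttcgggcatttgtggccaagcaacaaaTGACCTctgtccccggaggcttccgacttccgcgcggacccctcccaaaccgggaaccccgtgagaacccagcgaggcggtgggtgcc
Pgr: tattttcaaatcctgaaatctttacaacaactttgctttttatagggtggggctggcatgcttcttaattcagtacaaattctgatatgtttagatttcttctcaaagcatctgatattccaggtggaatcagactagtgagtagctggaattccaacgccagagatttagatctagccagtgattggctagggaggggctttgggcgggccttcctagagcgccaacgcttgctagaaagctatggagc
The match in Greb1 begins 88 bases before the start, in the reverse orientation TGACCT, and Pgr holds none.

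The search covered 9 promoter entries of 7 members, from 250 bases before to 50 after each start, on both strands. The half-site was in 1 of the 9 and in 16.3% of 32851 promoters of all genes. The full palindromic element, GGTCA and TGACC with 3 bases between them, which overlaps the half-site, was in 0 of the 9 and in 0.07% of all. The forkhead motif TGTTTAC was in 1 of the 9, that of Foxa1, and in 3.65% of all, and the GATA motif AGATAA in 0 of the 9 and in 11.2% of all. A match is a run of letters in this window, and nothing follows from it about binding.

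Ly6a (ENSMUSG00000075602, chromosome 15 from 74994877 to 74998031, minus strand) encodes the surface protein Sca-1, which marks some luminal and stromal cells and is induced by interferon. It was the member with the highest mean, 281 ± 191 TPM (SD, n = 9 mice). Its lowest value was 6.55 TPM in tumor 2, its median 280 TPM and its highest 658 TPM in tumor 12. The other 11 tumors lay between 112 and 658 TPM, with the 3 tumors of the mouse of tumors 10 to 12 and tumor 8 at 502 TPM or more. Ly6 genes are close copies of each other in 1 cluster, so a split of reads among them makes the level uncertain.

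TPM is per length, so levels can be compared between members. On the log2(TPM + 1) scale, Ly6a and Xbp1 did not differ beyond their spread over mice: the difference was 0.13 ± 1.36 (SD, n = 9 mice), positive in 5 and negative in 4 (p = 0.79 by a two-sided exact permutation of the signs, adjusted over 5 pairs by Benjamini-Hochberg to 0.99). Xbp1 was above Gata3 by 3.34 ± 0.87, in 9 of 9 mice (exact p = 0.0039, the smallest 9 mice can give, adjusted p = 0.020). Without tumors 2 and 8, the difference was 3.17 (exact p = 0.016, the smallest 7 mice can give, adjusted p = 0.078).

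The neighbors tested in the lower part of the order did not separate. Tbx3 and Foxa1 differed by 0.0062 ± 2.42 (SD, n = 9 mice), with 5 positive and 4 negative values (exact p = 1, adjusted p = 1), and the sign turned without tumors 2 and 8 (-0.81). Foxa1 exceeded Greb1 by 0.54 ± 2.40 in 6 of 9 mice (exact p = 0.49, adjusted p = 0.81), and Greb1 exceeded Esr2 by 0.58 ± 1.34 in 6 of 9 (exact p = 0.16, adjusted p = 0.40). Without tumor 1 these differences were 1.10 and 0.15, and without tumor 9 the first was 0.076. Without tumors 2 and 8 they were 0.84 and 0.59, Ly6a minus Xbp1 was 0.32 and Gata3 minus Esr1 was 3.30. Pairs with Esr1 or Pgr were not tested, since both were chosen as near 0. Gata3 was above Esr1 by 2.43 ± 2.50, in 8 of 9 mice, with tumor 2 the exception, and by 3.23 without tumor 2. Esr1 was above Tbx3 by 0.26 ± 1.84, in 6 of 9 mice. Esr2 was above Pgr by 0.17 ± 0.21, in 6 mice, and below in 1.

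Which mature luminal genes remained while Esr1 and Pgr were low was read from 4 lists of 29 genes: luminal keratins, hormone-sensing genes, genes of luminal tumors and estrogen response genes. Of the 29, 16 were at 1 TPM or more in at least 10 tumors (29.7% of all genes were) and 5 were below 1 TPM in all 12 (56.6% of all genes were). The median of their mean levels was 11.8 TPM, against 0.0817 TPM over all genes. Most of the 16 came from 2 lists, with all 4 luminal keratins and 8 of 10 estrogen response genes. Only 1 of 7 hormone-sensing genes and 3 of 8 genes of luminal tumors were among them. The 5 were Agr2, Tff3, Erbb4, Tff1 and Pdzk1.

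The luminal keratins Krt8 and Krt18 had the highest means of the 29 genes. All 4 luminal keratins were at 1 TPM or more in at least 10 tumors, beside 29.7% of all genes. Krt8 averaged 1297 ± 999 TPM (SD, n = 9 mice), Krt18 1168 ± 937 TPM, Krt7 254 ± 252 TPM and Krt19 191 ± 163 TPM. Tumor 2 had at most 0.544 TPM of each, and tumor 8 had 128 TPM of Krt8 but 0.535 TPM of Krt7. Outside these 2 tumors Krt8 did not fall below 677 TPM.

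Of 7 hormone-sensing genes, 1 was at 1 TPM or more in at least 10 tumors, beside 29.7% of all genes. The 1 gene was Areg, amphiregulin, the growth factor that relays the estrogen signal in the duct, with 50.1 ± 56.3 TPM (SD, n = 9 mice), 0 in tumor 2 and 191 TPM in tumor 3. Prlr, the prolactin receptor, was between 9.58 and 23.4 TPM in 9 tumors and below 0.5 TPM in tumors 2, 8 and 9. Prom1 had a mean of 11.8 ± 13.9 TPM, and was also below 1 TPM in those 3 tumors. Wnt4, a relay of progesterone, did not exceed 3.39 TPM.

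Other genes of the list stood out in single tumors. Cited1, a cofactor of the estrogen receptor, was at 337 TPM in tumor 9 and at most 8.94 TPM elsewhere. Calca was at 16.9 TPM in tumor 9 and listed at 0 in 9 tumors. Tnfsf11, RANK ligand and a progesterone-induced signal that lymphoid and stromal cells also make, was at 24.4 TPM in tumor 8 and at most 2.70 TPM elsewhere. Tumor 9, highest in Cited1 and Calca, was also highest in Foxa1 and Gata3, and its Esr1 (1.57 TPM) and Pgr (0.0735 TPM) were not raised. Other genes of the list were low there, with Areg at 1.02, Prom1 at 0.628, Wnt4 at 0.512 and Prlr at 0.483 TPM.

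**Figure D2:**
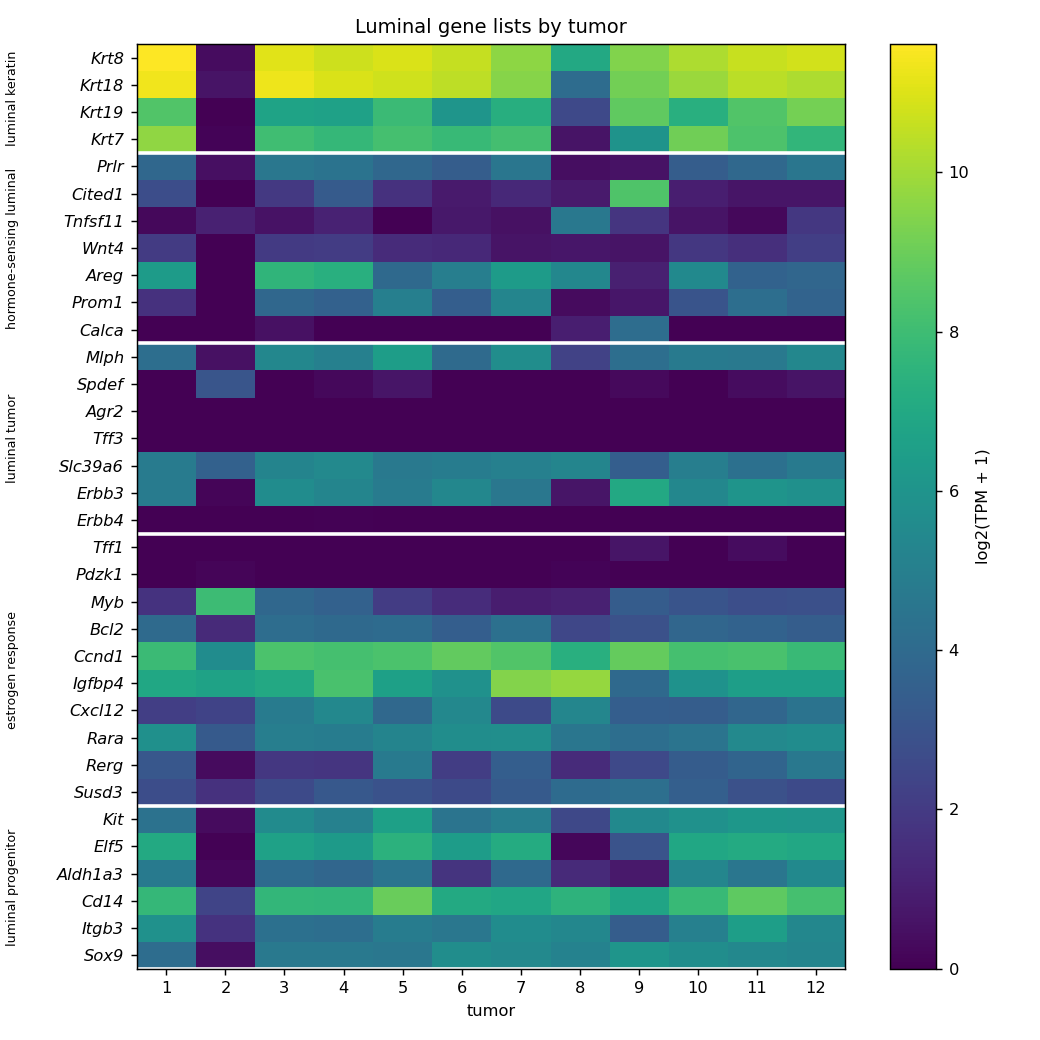
Level of the genes shown from 5 luminal lists (rows) in the 12 tumors (columns), with color giving log2(TPM + 1). Keratins are high in most tumors and low in tumors 2 and 8, progenitor genes are low in tumor 2, Cited1 and Calca stand out in tumor 9, and Agr2 and Tff3 are at 0 throughout.

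Of 8 genes of luminal tumors, 3 were at 1 TPM or more in at least 10 tumors, near the 29.7% of all genes. Erbb3, a partner receptor of HER2, averaged 38.3 ± 38.1 TPM (SD, n = 9 mice), Mlph, a melanosome transport protein, 28.8 ± 27.2 TPM and Slc39a6, a zinc transporter, 26.3 ± 10.3 TPM. Another 3 were below 1 TPM throughout: Agr2 and Tff3 were listed at 0 in all 12 tumors, and Erbb4 did not exceed 0.0474 TPM. Spdef, a luminal ETS factor, was at 7.23 TPM in tumor 2 and at most 0.580 TPM elsewhere.

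Of 10 estrogen response genes, 8 were at 1 TPM or more in at least 10 tumors, beside 29.7% of all genes. Ccnd1, cyclin D1, averaged 290 ± 132 TPM (SD, n = 9 mice), Igfbp4 250 ± 309 TPM and Rara, a retinoic acid receptor, 34.4 ± 16.5 TPM. Tff1 and Pdzk1 were below 1 TPM in all 12, with highest values of 0.583 and 0.1003 TPM. Myb, known also from blood progenitors, was at 246 TPM in tumor 2 and at most 13.8 TPM elsewhere. Many of these genes respond to other signals too, so their level is no measure of receptor activity.

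In each of the 12 tumors the luminal progenitor genes had a higher median than the hormone-sensing genes. All 6 progenitor genes were at 1 TPM or more in at least 10 tumors, beside 29.7% of all genes. They were led by Cd14 (197 ± 143 TPM, SD, n = 9 mice, shared with macrophages), the ETS factor Elf5 (84.0 ± 66.9 TPM) and the receptor Kit (35.9 ± 30.5 TPM). Their median was 0.316 TPM in tumor 2 and 19.4 to 80.4 TPM in the others. In tumor 2 both medians were thus below 1 TPM. In tumor 8 the median of 19.4 TPM came with Cd14, Itgb3 and Sox9 at 34.2 TPM or more, while Elf5 was at 0.141, Aldh1a3 at 1.64 and Kit at 4.65 TPM. The median of the hormone-sensing genes ran from 0 TPM in tumor 2 to 8.94 TPM in tumor 4. Tumor 9, highest in Foxa1, had low Elf5 (6.77 TPM) but the highest Sox9 (66.5 TPM), with Kit at 44.3 TPM. Of 5 myoepithelial genes, 2 were at 1 TPM or more in at least 10 tumors, beside 29.7% of all genes. The median of the 5 was 0 TPM in tumor 2 and 1.04 to 15.5 TPM elsewhere.

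RNA of proteins that work with the receptors was listed in most tumors. All 16 receptor cofactors were at 1 TPM or more in at least 10 tumors, beside 29.7% of all genes. Among them were the AP-2 factor Tfap2c (60.0 ± 49.4 TPM, SD, n = 9 mice) and the corepressor Ncor1 (46.7 ± 10.0 TPM). Tfap2c and the epithelial factor Grhl2 were below 1 TPM in tumors 2 and 8. Of 10 other receptors, most of them nuclear receptors, 6 were at 1 TPM or more in all 12 tumors, beside 25.2% of all genes. The list was led by the vitamin D receptor Vdr (67.1 ± 43.3 TPM), Ppard (43.8 ± 20.3 TPM) and Rxra (39.4 ± 16.7 TPM). The glucocorticoid receptor Nr3c1, of the same receptor family as Pgr, had 25.1 ± 7.08 TPM. Several other nuclear receptors were thus well above Esr1, Esr2 and Pgr in most tumors. The estrogen-related receptor Esrrg was at 11.7 TPM in tumor 9 and at most 2.02 TPM elsewhere, and Esrrb was below 1 TPM throughout.

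Relatives of the members gave a mixed picture. Of 14, 4 were at 1 TPM or more in all 12 tumors, near the 25.2% of all genes, and each was a Ly6 gene, led by Ly6e (2990 ± 1051 TPM, SD, n = 9 mice), Ly6d (92.3 ± 135 TPM) and Ly6c1 (50.3 ± 30.4 TPM), with Ly6c2 the fourth. Another 4 were below 1 TPM throughout: Gata1, Gata5, Tbx4 and Tbx5. Ly6d was at 430 TPM in tumor 9 and at most 132 TPM elsewhere. Gata2 was at 19.4 TPM in tumor 8 and at most 1.96 TPM elsewhere. Foxa2 was at 23.6 TPM in tumor 9 and at most 1.82 TPM elsewhere. Foxa3 was highest in tumors 11, 5 and 12, with 14.3, 9.52 and 9.19 TPM. Tumors 5 and 12 were thus high in both Foxa1 and Foxa3, tumor 9 in Foxa1 and Foxa2, and tumor 11, with 1.85 TPM of Foxa1, in Foxa3.

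A total of 6 relations over the 9 mice were computed, with two-sided exact permutations of the pairings and adjustment over the 6. Ly6a followed the median of 10 interferon response genes (r = 0.99, exact p = 0.00021, adjusted p = 0.0013; rho = 0.92, exact p = 0.0013, adjusted p = 0.0079). Without tumors 2 and 6, the 2 mice farthest from the median of that list, r was 0.86 (exact p = 0.012). Without tumors 2 and 8, r was 0.90 (exact p = 0.0095, adjusted p = 0.057). The list median was 2.90 TPM in tumor 2 and 46.9 to 165 TPM in the others, so tumor 2 lay low on both axes. Bst2, Isg15 and Irf7 had the highest means of the list, with 605 ± 283, 212 ± 106 and 210 ± 141 TPM.

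Of the other 5 relations, 4 did not pass the test and 1 is given as a description. Foxa1 with Gata3 had r = 0.55 over 9 mice (exact permutation p = 0.12, adjusted p = 0.19) and rho = 0.72 (p = 0.034, adjusted p = 0.10), and r was 0.21 without tumors 2 and 9 (p = 0.59) and 0.64 without tumors 2 and 8 (p = 0.13). Esr1, chosen as near 0, is set beside its target Greb1 as a description: its p entered the adjustment over the 6 relations and nothing is read from it. Here r was -0.28 and rho 0.13 over the 9 mice. The sign turned with single mice, since r was 0.51 without tumor 1 and -0.71 without tumor 2. It was -0.74 without tumors 2 and 8, and 0.79 without the mice of tumor 1 and of tumors 3 and 4. Gata3 with the T lymphocyte genes had r = 0.58 (exact p = 0.11, adjusted p = 0.19) and rho = 0.67 (p = 0.059, adjusted p = 0.12), and r was 0.44 without tumors 8 and 9 (p = 0.34) and 0.65 without tumors 2 and 8 (p = 0.14).

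Tbx3 with the fibroblast genes had r = 0.60 (exact permutation p = 0.090, adjusted p = 0.19) and rho = 0.33 (p = 0.39, adjusted p = 0.58), and r was 0.82 without tumors 2 and 7 (p = 0.026). Without tumor 8, the tumor with the highest Tbx3, r was 0.36 (exact p = 0.39), and without tumors 2 and 8 it was 0.63 (exact p = 0.19). The fibroblast median was highest in tumors 4 and 8, with 442 and 333 TPM, and both were among the 3 tumors with the highest Tbx3. The part of fibroblasts in Tbx3 was not tested further. Xbp1 with 12 of the secretory pathway genes it is known to drive had r = 0.40 (exact p = 0.29, adjusted p = 0.29) and rho = 0.25 (p = 0.52, adjusted p = 0.62), and r was 0.38 without tumors 1 and 2 (p = 0.39). Without tumor 2 alone, r was -0.16, and without tumors 2 and 8 it was -0.17. All 12 secretory genes were at 1 TPM or more in every tumor, beside 25.2% of all genes. Their median in a tumor was 78.0 to 215 TPM, and Hspa5 (817 ± 414 TPM), Ssr3 (273 ± 100 TPM) and Pdia6 (262 ± 112 TPM) had the highest means.

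**Figure D3:**
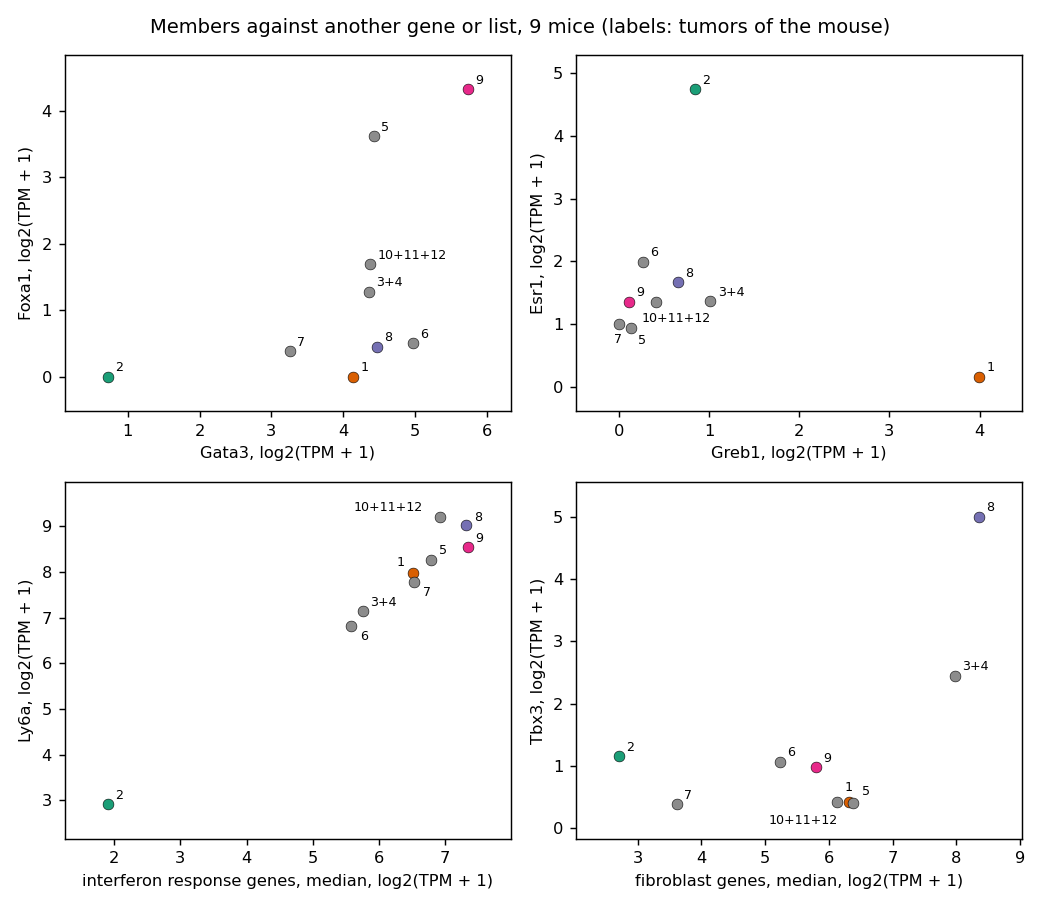
Each point is 1 of 9 mice, labelled by its tumors, with both axes as log2(TPM + 1) and the median of the genes for a list. Ly6a rises with the interferon response genes, with tumor 2 far below the rest, while Greb1 in tumor 1, Esr1 in tumor 2 and Tbx3 in tumor 8 lie apart from the other mice.

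The genes whose levels were most like those of a member were found among 16802 genes with a mean of 1 TPM or more, by Pearson r over 9 mice. For Ly6a they were Ifit3, Ifit1 and Isg15 (r of 0.98 each, and 0.85 to 0.93 without tumor 2), 3 interferon-induced genes of the list above. For Esr1 they were Armt1, Rmnd1 and Pttg1 (r of 0.98 each, and 0.86 to 0.91 without tumor 2). Armt1 and Rmnd1 are neighbors of Esr1 on chromosome 10, at 156 and 179 kb. Both were highest in tumor 2, with 59.9 and 84.9 TPM, against at most 15.9 and 23.9 TPM elsewhere.

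For the others the leading genes were Aadac, Gm44293 and Nup62cl for Foxa1 (r of 0.97 to 0.98, and 0.94 to 0.96 without tumor 9). For Gata3 they were Emc9, Mvp and Pld2 (r of 0.97 to 0.99, and 0.89 to 0.94 without tumor 2). They were Col23a1, Gstt4 and Brinp3 for Tbx3 (r of 0.97 to 0.98, and 0.88 to 0.93 without tumor 8). For Xbp1 they were Sat2, Pigs and Reck (r of 0.96 to 0.97, and 0.91 to 0.94 without tumor 2). Sat2 and Pigs lie on chromosome 11, as Xbp1 does. For Greb1 they were Gm5576, Bmp7 and 5031439G07Rik (r of 0.93 to 0.95), and without tumor 1 these fell to 0.21, 0.029 and 0.59. Bmp7, a secreted growth factor, was at 46.0 TPM in tumor 1 and at most 1.47 TPM elsewhere. Col23a1 and Gstt4 reached a mean of 1 TPM only through tumor 8, Gm44293 only through tumor 9, and Gm5576 and Bmp7 only through tumor 1. Their likeness to a member highest in that tumor was thus partly set by the filter. The genes were picked for their r, so these are descriptions with no test.

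Whether a member moved alone or with its chromosomal region was read from the 10 nearest genes with a mean of 1 TPM or more, 5 on either side. In tumor 2, Esr1 was 3.38 above its median over 9 mice on the log2(TPM + 1) scale, and its neighbors had a median of 1.11 above theirs, with 8 of 10 above. Rmnd1 was 2.22, Armt1 2.102 and Fbxo5 1.84 above, and Myct1 was at -0.51. In tumor 8, Tbx3 was 4.02 above and its neighbors 1.01, with 10 of 10 above. Among them Tbx3os1 could not have been otherwise, as it overlaps Tbx3 and passed the filter only through tumor 8. Of 16717 such genes with a position, 41.7% were above their median in tumor 2 and 43.2% in tumor 8. Raised neighbors were not particular to Esr1, since those of Foxa1 in tumor 2 had a median of 0.90 with 6 of 10 above, and Foxa1 itself was at -0.51.

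The other members that stood out in single tumors had neighbors with medians between -1.84 and 0.37. Greb1 in tumor 1 was 3.58 above its median, and its neighbors were at -0.06. Foxa1 was 3.82 above in tumor 9 and 3.11 in tumor 5, with neighbors at -0.58 and -0.19, and 2.82 in tumor 12, with neighbors at 0.37. Gata3 in tumor 2 was at -3.65 and its neighbors at -0.07, where the 2 lowest, at -2.68 and -2.28, were the transcripts 4930412O13Rik and 9230102O04Rik inside the span of Gata3. Ly6a in tumor 2 was at -5.07 and its neighbors, among them Ly6d, Ly6e, Ly6c1 and Ly6c2, at -1.84. DNA copy number was not analysed here.

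**Figure D4:**
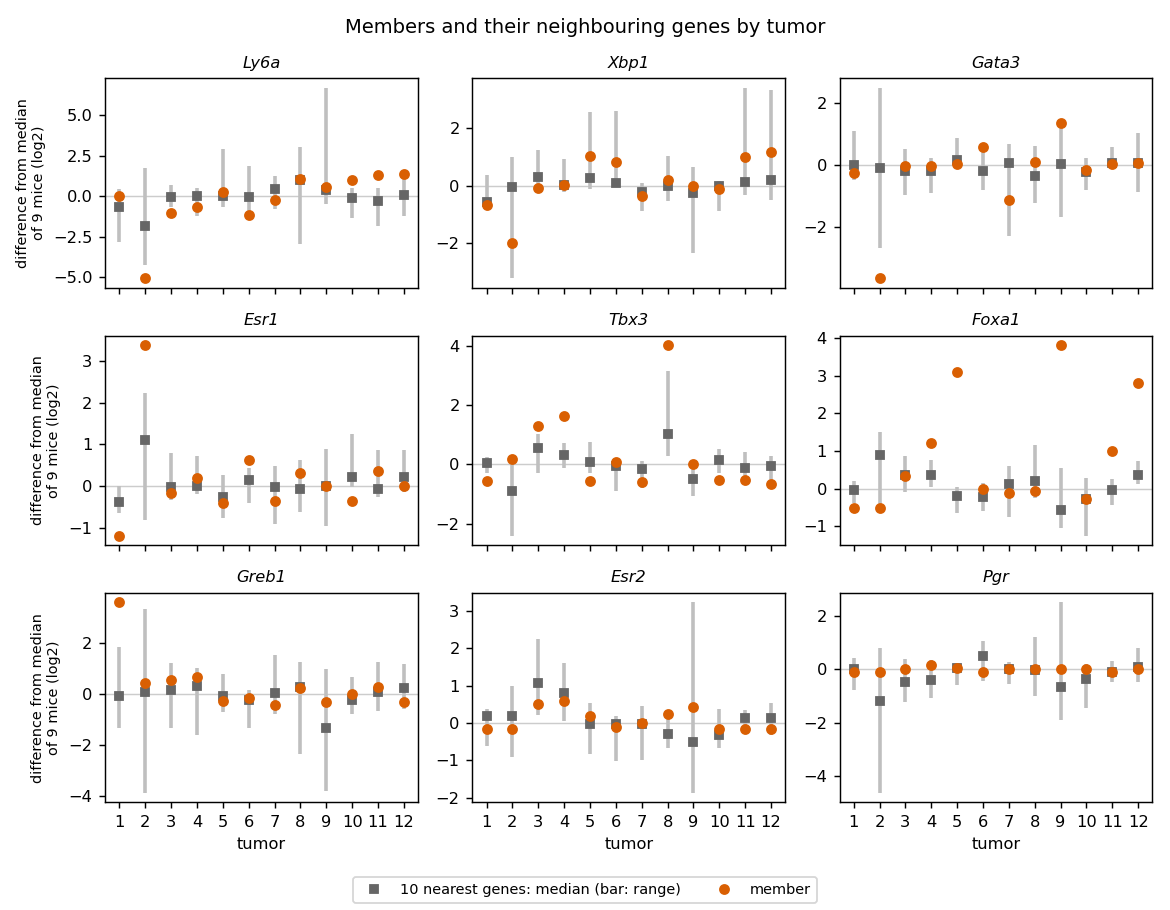
Difference from the median over 9 mice on the log2(TPM + 1) scale, by tumor, for each member (points) and for the 10 nearest genes (squares give their median, bars their range). Esr1 in tumor 2 and Tbx3 in tumor 8 stand above neighbors that are also raised, whereas Foxa1 in tumors 5, 9 and 12 and Greb1 in tumor 1 stand above neighbors with medians between -0.58 and 0.37.

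Other cell types were present to differing degrees, and their markers are given over the 12 tumors as the range of the list median. The range was 6.61 to 181 TPM for macrophage genes (led by Cd14, Cd68 and Csf1r), 2.57 to 31.8 TPM for endothelial genes (Pecam1, Cdh5 and Emcn) and 0.411 to 14.2 TPM for T lymphocyte genes (Cd4, Cd3g and Cd8a). It was 7.08 to 442 TPM for fibroblast genes (Dcn, Col3a1 and Col1a2) and 0.209 to 51.6 TPM for plasma cell genes (Jchain, Mzb1 and Irf4). The highest plasma cell median, in tumor 2, came from Mzb1 and Irf4 (209 and 100.2 TPM), while Jchain was at 2.91 and Prdm1 at 1.85 TPM there. Adipocyte genes (Adipoq, Cidec and Plin1) ranged from 0 to 15.9 TPM and skeletal muscle genes (Acta1, Ckm and Myh4) from 0 to 21.0 TPM, the latter highest in tumors 3 and 4. Tumors 3 and 4 were also the 2 with the highest Esr2, and the part of any of these cells in that was not tested.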

How the data were processed

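The authors deposited TPM values, 1 per gene and tumor, with no pooling of tumors. Per their methods and the processing notes, poly(A) RNA went into stranded mRNA libraries, and trimmed paired-end reads were aligned with HISAT to GRCm38 and quantified with StringTie 2.1.6. How transcripts were summed per gene is not given in the sources used here. TPM is relative and keeps no read number, so no count model and no counting interval were possible. The sums per tumor were 999770 to 999909, and mitochondrial genes took 3.66% to 7.40%.

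From these values log2(TPM + 1) was computed, and tumors of 1 mouse were averaged to 9 values. Neighbors in the order of levels were compared with exact sign-flip tests and the 6 relations with exact permutations of the pairings, each with Benjamini-Hochberg adjustment and a threshold of 0.05. The p-values measure the spread between mice. The members, the 20 lists (145 genes) and the tests were chosen with earlier results of these data known, so no list is independent support. Named are the 9 members, the 3 genes with the highest mean of each list, genes a small count singles out, and the 3 genes most like a member; some genes of the lists are not reported here. Other genes, such as Tbx3os1, Dcn, Cited1, Bmp7 and single neighbors with their values, were chosen after their values were seen. Positions are from GENCODE vM21 (GRCm38), which placed 47137 of 47593 identifiers, and promoters from RefSeq, with no entry for Tbx3 and Ly6a. Alternatives were a pseudocount of 0.1, single tumors as units, TPM without mitochondrial genes, list means, lists without low genes, leaving out each mouse and, chosen after seeing the data, leaving out tumors 2 and 8. The tests were tried on simulated data. Python 3.11.15, numpy 2.4.6, pandas 2.3.3 and scipy 1.17.1 were used.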

Additional observations from a re-analysis of the deposited data

Results flagged for a closer look

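The highest and the lowest of the 9 mice were compared with the rest for the 9 members and the 20 lists, and 10 of these 29 had 1 mouse whose gap to its nearest neighbor took more of the whole range than Dixon's 95% critical value allows. Chance picks about 1 in 20, but the 29 are not independent and Esr1 and Pgr were chosen by their level, so the number is a description. Of the 10, 7 came from tumor 2. Values are log2(TPM + 1), or the median of that over a list.

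Among the members, Esr1 was highest in tumor 2 at 4.74, where the nearest mouse had 1.99. Greb1 was highest in tumor 1 at 4.00 (nearest mouse 1.01), and Tbx3 was highest in tumor 8 at 5.00 (nearest mouse 2.45). Gata3 was lowest in tumor 2 at 0.72 (nearest mouse 3.26), and so was Ly6a at 2.92 (nearest mouse 6.82).

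Among the lists, tumor 2 was lowest in the luminal progenitor genes at 0.40 (nearest mouse 3.82), the list of other receptors at 3.04 (nearest 4.21), the interferon response genes at 1.91 (nearest 5.57) and the macrophage genes at 2.93 (nearest 6.16). The mouse of tumors 3 and 4 was highest in the skeletal muscle genes at 4.16 (nearest 0.18). No cause was tested for any of them.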

How the results depend on the processing

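The mean levels of the members stayed within 1 SD over the 9 mice in all 108 values under alternatives. For leaving out 1 mouse this was fixed beforehand, since the SD holds that mouse, so it does not show stability. Several means were set by 1 mouse: without its highest mouse, the mean was 1.50 TPM for Esr1 (tumor 2), 2.19 TPM for Foxa1 (tumor 9), 0.388 TPM for Greb1 (tumor 1) and 1.14 TPM for Tbx3 (tumor 8). With a pseudocount of 0.1, Esr2 minus Pgr was 0.62. Tbx3 minus Foxa1 was -0.11 with single tumors as units and -0.81 without tumors 2 and 8. Also without those tumors, Xbp1 minus Gata3 was 3.17 (exact p = 0.016, the smallest 7 mice can give, adjusted p = 0.078), Xbp1 with its secretory genes had r = -0.17, and Ly6a with the interferon genes had r = 0.90 (exact permutation, adjusted p = 0.057). Leaving out each mouse in turn gave -0.034 to 0.46 for Ly6a minus Xbp1, 3.17 to 3.55 for Xbp1 minus Gata3 (adjusted p = 0.039 throughout), 0.076 to 1.10 for Foxa1 minus Greb1, 0.15 to 0.71 for Greb1 minus Esr2, 2.19 to 3.23 for Gata3 minus Esr1, -0.16 to 0.71 for Esr1 minus Tbx3 and -0.56 to 0.42 for Tbx3 minus Foxa1. It gave r of -0.71 to 0.51 for Esr1 with Greb1, -0.16 to 0.71 for Xbp1 with its secretory genes and 0.92 to 1.00 for Ly6a with the interferon genes (adjusted p at most 0.018). The cause of these changes was not tested. Of the other values under alternatives, 93 for the order and 82 for the relations kept their direction and their side of the threshold or, for pairs not tested, moved by less than 1 SD, Esr1 minus Tbx3 turning to -0.16 without tumor 2 among them. No paired analysis was possible because there is 1 group only, apart from the differences between genes within a mouse. Values at or near 0 for Esr2, Pgr, Greb1 and Foxa1 have no known depth behind them.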
